A study of Eragrostis tef with 16 samples.

Results

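Cyclic nucleotide-gated channel genes of tef (Eragrostis tef), namely CNGC2 (Et_4B_038004) and the CNGC4 genes CNGC4 (Et_3B_029538), CNGC4-1 (Et_4B_037294) and CNGC4-2 (Et_9B_064738), are described here across roots and shoots at low and control calcium. They are 4 of the 68255 genes in the count table and were taken by their identifiers. Their names are those given by the study. The study plotted them among differentially expressed genes, so their selection was not independent of these libraries. Tef plants of a single accession, chosen for high seed Ca, were moved as seedlings into aerated hydroponic solution and grown for about a month in 0.01 mM Ca2+ (low) or 1 mM Ca2+ (control). In both media, NH4NO3 took the place of calcium nitrate. RNA was sequenced from roots and shoots in 4 groups of 4 libraries, which are low calcium roots (LCR, S1 to S4), low calcium shoots (LCS, S5 to S8), control roots (ConR, S9 to S12) and control shoots (ConS, S13 to S16). The study calls them independent biological replicates and does not say how many plants went into each.

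CNGCs are plasma membrane cation channels with a cyclic nucleotide binding domain and a calmodulin binding site. The study states that every member tested so far carries K+ and that some also carry Ca2+. In Arabidopsis, CNGC2 and CNGC4 are closely related and act together as subunits of a channel that carries Ca2+ entry in immune signalling. Arabidopsis plants without CNGC2 are dwarfed, respond abnormally to pathogens and are hypersensitive to calcium in the medium, and that gene has been linked to the movement of Ca2+ into leaf cells. The function of the tef genes has not been measured, and the names follow the similarity assigned by the study. Tef is an allotetraploid with A and B subgenomes. The identifiers of all 4 genes carry B chromosome labels, 4B for CNGC2 and CNGC4-1, 3B for CNGC4 and 9B for CNGC4-2. Reads that fit a near-identical copy equally well are not uniquely mapped, so the counts of such genes can be too low.

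Library totals lay between 6276818 and 10166944 reads for LCR, between 9959542 and 11720368 for LCS, between 11587068 and 17659238 for ConR and between 14640539 and 15590039 for ConS. No defining marker of root or shoot is named in the files. As a stand-in, 549 genes high in ConR over ConS and 1071 genes high in ConS over ConR (at least 6 on the log2 scale and a mean of at least 10 CPM) were followed. The root-high genes took between 4.54% and 6.14% of all counts in LCR libraries, against 0.0824% to 0.282% for LCS, and between 4.53% and 6.12% in ConR libraries, against 0.0253% to 0.0322% for ConS. The shoot-high genes took between 0.263% and 0.296% of counts in LCR libraries, against 17.4% to 30.7% for LCS, and between 0.205% and 0.274% in ConR libraries, against 27.05% to 35.4% for ConS. The low calcium libraries thus matched their tissue labels, while the ConR and ConS values chose these genes and check nothing. LCS S8 stood apart from the other shoot libraries with the highest share of root-high genes (0.282%) and the lowest of shoot-high genes (17.4%).

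All 4 genes were expressed mainly in shoots, at both Ca2+ levels. The 3 CNGC4 genes were close to absent from roots, with 0 to 6 reads in any root library against 85 to 210 reads in any shoot library. CNGC2 was also far lower in roots but was counted in every root library, with 9 to 40 reads against 126 to 381 in shoot libraries. Values below are normalized counts in CPM (counts scaled to a common library size, with totals adjusted by the TMM method of edgeR). In bulk tissue, fewer cells that express a gene and less of its RNA per cell cannot be told apart.

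CNGC2 had 1.27, 2.37, 1.71 and 2.73 CPM in LCR (S1 to S4), against 22.1, 21.9, 19.7 and 12.1 CPM in LCS (S5 to S8). It had 2.66, 1.02, 1.32 and 1.21 CPM in ConR (S9 to S12), against 31.9, 25.7, 19.6 and 16.4 CPM in ConS (S13 to S16). Every root library lay below every shoot library. The highest root value (LCR S4, 2.73 CPM) was well under the lowest shoot value (LCS S8, 12.1 CPM). Within each Ca2+ level such a separation was common, at 21.2% of all genes tested for LCR vs LCS and 22.1% for ConR vs ConS. Taken over the summed reads, the root level was 11.03% of the shoot level at low Ca2+ (95% counting interval 8.73% to 13.8%) and 6.46% at control Ca2+ (5.21% to 7.93%). These intervals cover counting error only, and reads without molecular identifiers are not independent molecules.

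CNGC4 had 0.283, 0.263, 0 and 0.283 CPM in LCR, against 9.005, 15.2, 10.9 and 15.4 CPM in LCS. In ConR it had 0.133, 0.195, 0 and 0.142 CPM, against 14.1, 14.03, 17.3 and 9.80 CPM in ConS. No root group summed to more than 8 reads over its 4 libraries. No read was counted in LCR S3 or ConR S11, where a count of 0 allows up to 0.234 and 0.180 CPM. These values stand for 3 reads, an upper 95% limit that covers counting error only. On summed reads the shoot level was 65.8 times the root level at low Ca2+ (counting interval 33.1 to 153) and 113 times at control Ca2+ (56.8 to 262).

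CNGC4-1 had 0.566, 0.175, 0.234 and 0.188 CPM in LCR, against 12.1, 16.1, 15.3 and 13.99 CPM in LCS. In ConR it had 0.0664, 0.244, 0.240 and 0.284 CPM, against 17.3, 17.3, 14.97 and 15.96 CPM in ConS. It varied least among the shoot replicates, with a coefficient of variation of 12.2% in LCS and 6.92% in ConS, where counting error alone would give 8.49% and 7.21%. On summed reads the shoot level was 54.4 times the root level at low Ca2+ (30.1 to 110) and 77.8 times at control Ca2+ (46.1 to 143).

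CNGC4-2 had 0.566, 0.263, 0 and 0.377 CPM in LCR, against 8.14, 11.4, 11.2 and 12.3 CPM in LCS. In ConR it had 0.398, 0.0976, 0.180 and 0.0709 CPM, against 9.46, 13.9, 11.8 and 9.04 CPM in ConS. As for the other genes, the root and shoot libraries did not overlap, while LCS and ConS libraries were mixed in order. On summed reads the shoot level was 40.8 times the root level at low Ca2+ (22.6 to 82.4) and 60.5 times at control Ca2+ (34.3 to 118).

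**Figure D1:**
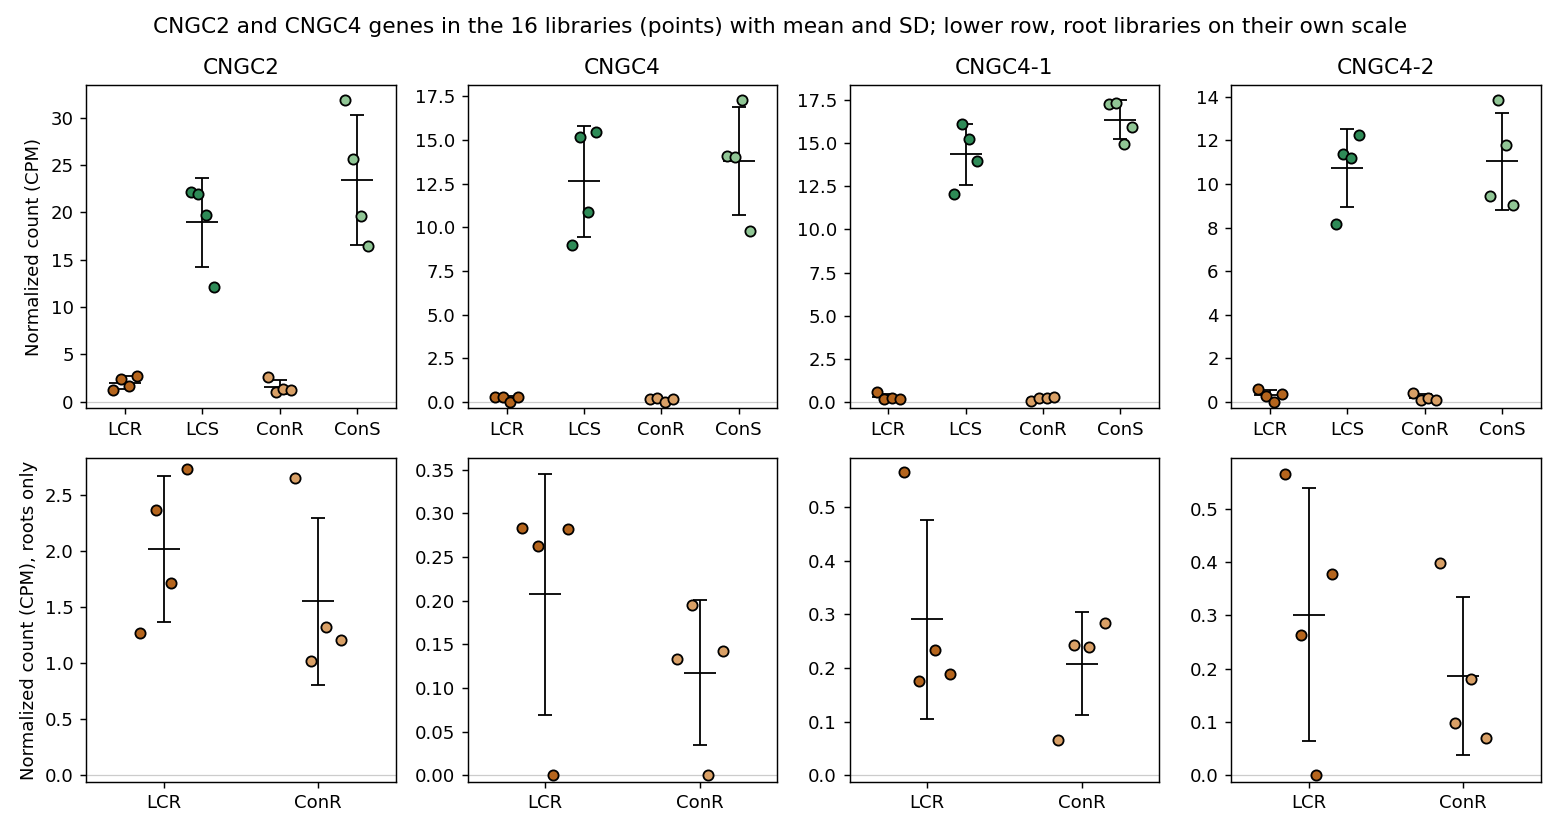
Normalized counts (CPM, vertical axis) of CNGC2 and the 3 CNGC4 genes in LCR, LCS, ConR and ConS. Each point is a library and the bars are mean and SD over 4 libraries. The lower row repeats the root groups on their own scale, where the CNGC4 genes stay at or below 0.566 CPM and LCR and ConR overlap for every gene.

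To test the difference between tissues, edgeR's quasi-likelihood test was fitted over all 16 libraries, with Benjamini-Hochberg adjustment over 56746 genes. All 4 genes were lower in roots at each Ca2+ level. Over all genes tested, 22.7% were called lower for LCR vs LCS and 23.7% for ConR vs ConS, and 21.2% and 22.1% had every root library below every shoot library, so a lower value in roots was in itself common. The size of the difference was less common. Of all genes tested, 2.35% had a log2 fold change as low as that of CNGC4 for LCR vs LCS and 1.83% for ConR vs ConS, and for CNGC2 the shares were 8.78% and 5.86%.

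The largest difference of the 4 genes was that of CNGC4, whose log2 fold change was -5.96 for LCR vs LCS (SE 0.46, edgeR adjusted p = 3.53e-09) and -6.73 for ConR vs ConS (SE 0.46, edgeR adjusted p = 4.21e-10), where SE is the standard error. For CNGC4-1 it was -5.70 (SE 0.30, edgeR adjusted p = 2.59e-11) and -6.21 (SE 0.29, edgeR adjusted p = 4.06e-12) in the same comparisons. For CNGC4-2 it was -5.27 (SE 0.46, edgeR adjusted p = 1.67e-08) and -5.84 (SE 0.45, edgeR adjusted p = 2.27e-09). The 95% intervals of the 3 CNGC4 genes overlapped each other, from -6.93 to -4.30 at low Ca2+ and from -7.69 to -4.89 at control Ca2+. For CNGC2 the log2 fold change was smaller, at -3.20 for LCR vs LCS (SE 0.32, edgeR adjusted p = 1.36e-07) and -3.92 for ConR vs ConS (SE 0.32, edgeR adjusted p = 6.74e-09). Its interval lay apart from those of the CNGC4 genes, at -3.88 to -2.52 at low Ca2+ and -4.60 to -3.24 at control Ca2+, though the difference between genes was not itself tested. The shoot-high genes as a group had a root level of 0.828% of the shoot level at low Ca2+ and 0.472% at control Ca2+. CNGC4 and CNGC4-1 are among these 1071 genes. The ConR and ConS values chose the genes, so the low value at control Ca2+ was fixed by that choice. Whether shoot RNA in the root libraries contributed to the few CNGC4 reads was not tested.

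Comparing low calcium roots with control shoots, a pair that differs in both tissue and Ca2+, gave the same order. The log2 fold change for LCR vs ConS was -6.08 for CNGC4, -5.89 for CNGC4-1, -5.30 for CNGC4-2 and -3.51 for CNGC2. All 4 were called lower (edgeR adjusted p from 1.37e-11 for CNGC4-1 to 3.04e-08 for CNGC2), as were 26.1% of all genes tested. Every LCR library lay below every ConS library for each of the 4, as for 24.7% of all genes. This comparison shares its LCR libraries with LCR vs LCS and its ConS libraries with ConR vs ConS, so it adds no separate evidence.

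**Figure D2:**
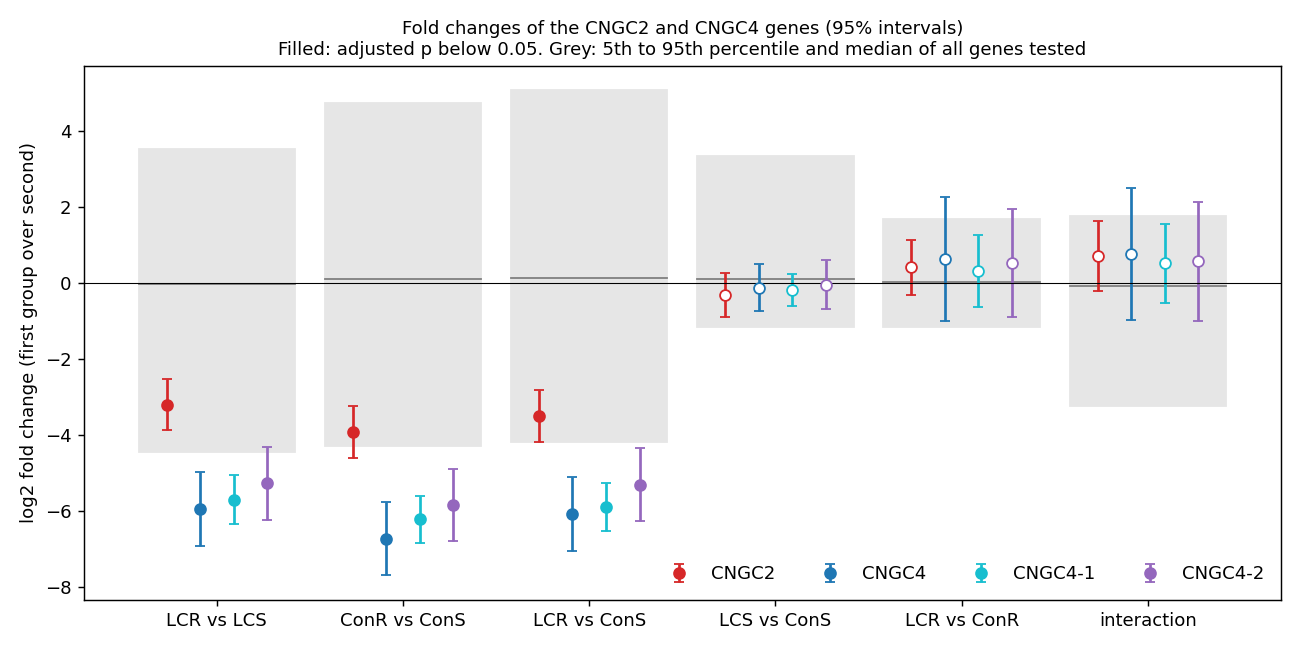
Log2 fold changes (vertical axis, first-named group over second) of the 4 genes in 6 comparisons, with 95% intervals from edgeR, filled where the adjusted p was below 0.05. Grey boxes span the 5th to the 95th percentile of all genes tested, with their median as a line. The CNGC4 genes lie below the box in LCR vs LCS, where it ends at -4.44, and CNGC2 lies inside it, while no gene is called in LCS vs ConS, LCR vs ConR or the interaction.

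In shoots, no difference between Ca2+ levels was detected for these genes. None of the 4 was called for LCS vs ConS by edgeR, DESeq2 or limma-voom, and none had an unadjusted p below 0.05, where edgeR called 25.8% of all genes tested. CNGC2 averaged 19.0 ± 4.71 CPM in LCS libraries, against 23.4 ± 6.85 CPM for ConS (SD, n = 4 each), and CNGC4 averaged 12.6 ± 3.19 CPM in LCS libraries, against 13.8 ± 3.07 CPM for ConS. CNGC4-1 averaged 14.4 ± 1.76 CPM in LCS libraries, against 16.4 ± 1.13 CPM for ConS, and CNGC4-2 averaged 10.7 ± 1.80 CPM, against 11.04 ± 2.23 CPM for ConS. This comparison shares its LCS libraries with LCR vs LCS and its ConS libraries with ConR vs ConS. The libraries of the groups overlapped for all 4 genes, while 9.26% of all genes had every LCS library below every ConS library and 13.4% had every one above.

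The log2 fold change for LCS vs ConS was -0.30 for CNGC2 (95% interval -0.88 to 0.27), -0.13 for CNGC4 (-0.75 to 0.49), -0.19 for CNGC4-1 (-0.61 to 0.23) and -0.04 for CNGC4-2 (-0.69 to 0.62). Differences of that size in either direction are therefore not shown to be absent. The narrowest interval, that of CNGC4-1, reaches from -0.61 to 0.23. The median over the 4 genes was -0.16, beside 0.11 over all genes tested. The median over all genes depended on the filter and was 0.010 with genes at 0 in 4 or more libraries removed. The sign for CNGC4-2 changed without LCS S5 (0.047) and without ConS S14 (0.046).

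In roots, where counts were low, no difference between Ca2+ levels was detected. For CNGC2 the replicates also varied more than counting error alone would give. Its coefficient of variation was 32.3% against 21.8% in LCR and 48.1% against 20.2% in ConR. CNGC2 averaged 2.02 ± 0.65 CPM in LCR and 1.55 ± 0.75 CPM in ConR (SD, n = 4 each), and the highest ConR library (S9, 2.66 CPM) was close to the highest LCR library (S4, 2.73 CPM). None of the 4 was called for LCR vs ConR by edgeR, DESeq2 or limma-voom, and none had an unadjusted p below 0.05. Among all genes, 3.23% were called by edgeR, and 7.17% had all LCR libraries below all of ConR and 8.21% had all above, while the groups overlapped for all 4 genes here. The log2 fold change was 0.41 for CNGC2 (95% interval -0.31 to 1.14), 0.64 for CNGC4 (-0.99 to 2.27), 0.32 for CNGC4-1 (-0.63 to 1.28) and 0.54 for CNGC4-2 (-0.89 to 1.96). With 1 library left out at a time, the value ran from 0.24 to 0.79 for CNGC2, from 0.25 to 1.13 for CNGC4, from -0.066 (without LCR S1) to 0.49 for CNGC4-1 and from 0.15 to 1.13 for CNGC4-2. The highest value of CNGC2 was that without ConR S9 (edgeR adjusted p = 0.224), an omission that left 1 of the 4 genes with an unadjusted p below 0.05 and none called.

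Whether the tissue difference depended on Ca2+ was tested as an interaction, LCR vs LCS minus ConR vs ConS. The estimates were 0.72 for CNGC2 (95% interval -0.21 to 1.64), 0.77 for CNGC4 (-0.97 to 2.51), 0.52 for CNGC4-1 (-0.53 to 1.56) and 0.57 for CNGC4-2 (-0.99 to 2.14). A positive value means a smaller gap between root and shoot at low Ca2+. None passed the threshold (edgeR adjusted p from 0.405 for CNGC2 to 0.724 for CNGC4-2), none had an unadjusted p below 0.05 with all 16 libraries, and DESeq2 and limma-voom called none. Over all genes, 5.91% were called. With 1 library left out at a time, the estimate ran from 0.54 to 1.10 for CNGC2, from 0.38 to 1.26 for CNGC4, from 0.12 to 0.68 for CNGC4-1 and from 0.18 to 1.17 for CNGC4-2. Without ConR S9, which gave the highest value of CNGC2 (edgeR adjusted p = 0.151), 1 of the 4 genes had an unadjusted p below 0.05 and none was called.

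CNGC2 and the CNGC4 genes did not keep a fixed proportion to each other between tissues. This follows from their fold changes on the same reads and is no separate evidence. Of the reads on the 4 genes together, CNGC2 made up 47.4%, 77.1%, 88.0% and 76.3% in LCR, against 43.1%, 33.9%, 34.5% and 22.5% in LCS. In ConR it made up 81.6%, 65.6%, 75.9% and 70.8%, against 43.9%, 36.2%, 30.8% and 32.05% in ConS. The root and shoot libraries did not overlap in this share, which does not depend on the scaling of the libraries. The gap was narrow, at 47.4% in LCR S1 against 43.9% in ConS S13. Gene lengths were not used, and they weight the part of each gene in the share. The root shares rest on 19 to 49 reads per library, and the lowest of them, in LCR S1, is 9 of 19 reads.

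Among shoot libraries, the order of CNGC2 differed from that of CNGC4. LCS S8 had the lowest CNGC2 of all shoot libraries (12.1 CPM) and the highest CNGC4 of LCS (15.4 CPM), and LCS S5 had the highest CNGC2 of LCS (22.1 CPM) and the lowest CNGC4 of the shoot libraries (9.005 CPM). CNGC2 reads per CNGC4 read were 2.46 in LCS S5 and 0.783 in LCS S8, and in ConS they lay between 1.13 (S15) and 2.27 (S13). The sum over the 4 genes spanned 51.3 to 64.6 CPM in LCS and 51.2 to 72.7 CPM in ConS. Whether the genes offset each other was not tested. LCS S8 is the library with the lowest share of shoot-high genes, and whether this bears on its CNGC2 level was not tested. Without LCS S8, the log2 fold change of CNGC2 for LCS vs ConS was -0.14 (edgeR adjusted p = 0.789).

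**Figure D3:**
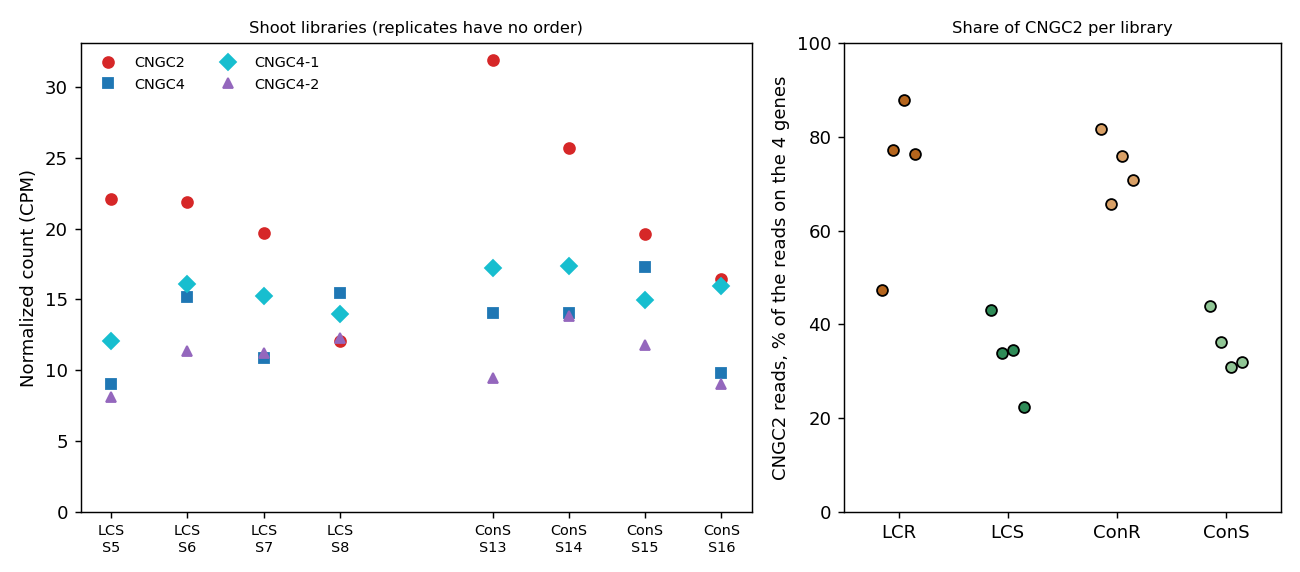
Left, normalized counts (CPM) of the 4 genes in each LCS and ConS library, where CNGC2 has its lowest value, 12.1 CPM, in LCS S8 and its highest, 31.9 CPM, in ConS S13. Right, CNGC2 reads as a percentage of the reads on the 4 genes in each library, which spans 47.4% to 88.0% over root libraries and 22.5% to 43.9% over shoot libraries.

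The profiles of the CNGC4 genes over 16 libraries were close to each other among the calcium and metal genes listed by the study. Likeness was measured as the root mean square difference of log2 CPM (prior count 2), with each gene centred on its mean over 16 libraries. The CNGC4 genes were scarcely counted in roots, so their root values there depend heavily on the prior count. The measure takes in the difference between roots and shoots and is no separate evidence beside the fold changes. CNGC4-2 was nearest to CNGC4 (0.49), followed by CNGC4-1 (0.51), and both other CNGC4 genes likewise had the remaining CNGC4 genes as their nearest listed genes. Of the other 56745 genes tested, 21 were closer to CNGC4 than CNGC4-2 was, 12 were closer to CNGC4-2 than CNGC4 was, and 102 were closer to CNGC4-1 than CNGC4 was. The nearest listed genes to CNGC2 were GLR2.4 (0.68), a glutamate receptor-like channel, and CBP7 (0.81), a calcium-binding protein. The nearest member, CNGC4-2, was at 0.91, and 2980 genes were closer to CNGC2 than that. GLR2.4 had a log2 fold change of -3.38 for LCR vs LCS and -4.61 for ConR vs ConS (edgeR adjusted p = 3.84e-07 and 4.75e-09), and CBP7 had -1.86 and -2.70 (edgeR adjusted p = 1.9e-06 and 1.42e-08).

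The other 7 CNGCs of the study's list (CNGC1, CNGC1-1, CNGC6, CNGC17, CNGC17-1, CNGC17-20 and CNGC20) differed far less between tissues. Their log2 fold changes ran from -1.43 to 0.67 for LCR vs LCS and from -1.29 to 0.44 for ConR vs ConS. In each comparison, 2 of the 7 were called lower and 1 higher. Of all genes, 22.7% and 23.7% were called lower and 20% and 28.7% higher, in the same order. CNGC20 had -1.43 for LCR vs LCS and -0.68 for ConR vs ConS (edgeR adjusted p = 0.000289 and 0.0354). CNGC1 had -0.55 and -1.29 (edgeR adjusted p = 0.0121 and 2.18e-06). CNGC17-20 was higher in roots, with 0.67 and 0.44 (edgeR adjusted p = 0.00223 and 0.025). Several of these calls depended on single libraries or on the processing. The call of CNGC1 for LCR vs LCS was lost without LCR S2 (-0.44, edgeR adjusted p = 0.052) and with upper-quartile normalization (-0.37, edgeR adjusted p = 0.0946). That of CNGC20 for ConR vs ConS was lost without ConR S9, ConR S10, ConS S15 or ConS S16 (edgeR adjusted p from 0.0856 to 0.133), with upper-quartile normalization (0.106), with the 8 libraries of the comparison (0.0721) and with thinned libraries (0.0783). That of CNGC17-20 for ConR vs ConS was lost without LCS S5, ConR S10, ConR S12, ConS S13 or ConS S14 (edgeR adjusted p from 0.0523 to 0.093) and with the 8 libraries of the comparison (0.0649). CNGC6, not called for LCR vs LCS (0.20), was called higher there with upper-quartile normalization (0.38, edgeR adjusted p = 0.0444). No 95% interval of these 7 genes reached that of CNGC2 in either comparison.

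**Figure D4:**
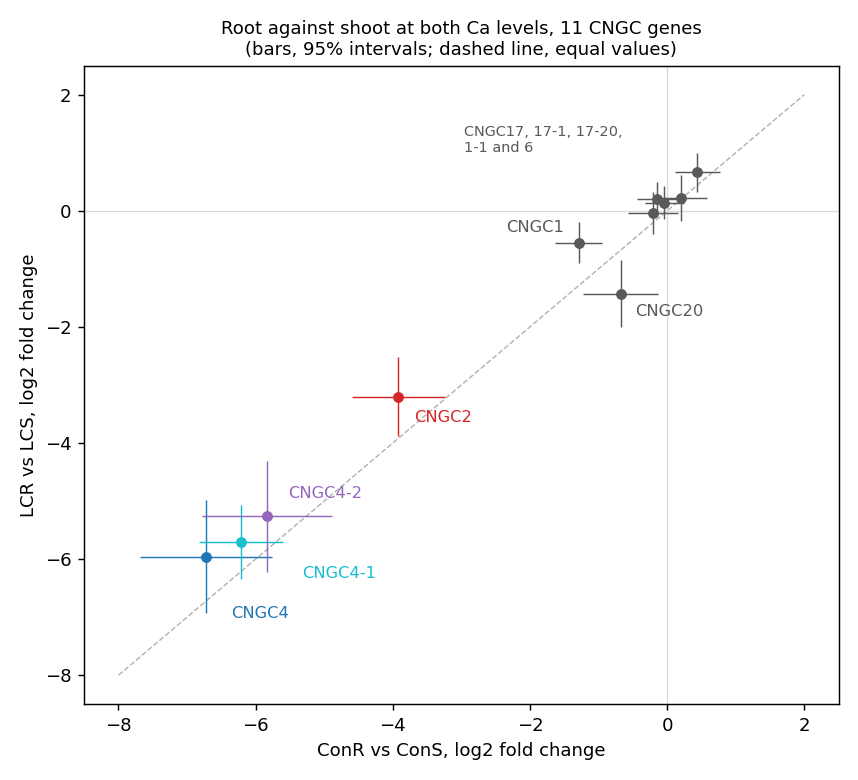
Log2 fold change of root over shoot at control Ca2+ (ConR vs ConS, horizontal axis) and at low Ca2+ (LCR vs LCS, vertical axis) for the 11 CNGC genes of the study, with 95% intervals and the line of equal values. The CNGC4 genes lie between -6.73 and -5.27, CNGC2 at -3.92 and -3.20, and the other 7 between -1.43 and 0.67, and the comparisons on the axes share no libraries.

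With respect to Ca2+, 5 of the other 7 CNGCs fell in shoots (LCS vs ConS), where 9.04% of all genes tested were called lower. CNGC1 fell by 0.96 on the log2 scale, with 16.9 ± 1.42 CPM in LCS and 32.9 ± 4.89 CPM in ConS (SD, n = 4 each, edgeR adjusted p = 0.000425). CNGC1-1 fell by 0.76, CNGC17 by 0.73, CNGC6 by 0.55 and CNGC17-1 by 0.53 (edgeR adjusted p from 0.00554 to 0.00885). In Arabidopsis, CNGC6 is known for Ca2+ entry upon heat, and CNGC17 acts with a peptide hormone receptor in cell expansion. For CNGC17-20 the value was -0.30 (edgeR adjusted p = 0.182) and for CNGC20, which in Arabidopsis has a role in immunity and cell death, it was 0.31 (edgeR adjusted p = 0.404). Without LCS S6 and S8, a setting chosen after seeing the data, 1 of the 7 was called. In roots 1 was called lower, CNGC1-1 at -0.74 (edgeR adjusted p = 0.0353), against 1.33% of all genes, and leaving out any of S1, S2, S4, S9, S10 and S12 left none called. That these genes passed the threshold and the CNGC2 and CNGC4 genes did not is no test of a difference between them.

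**Figure D5:**
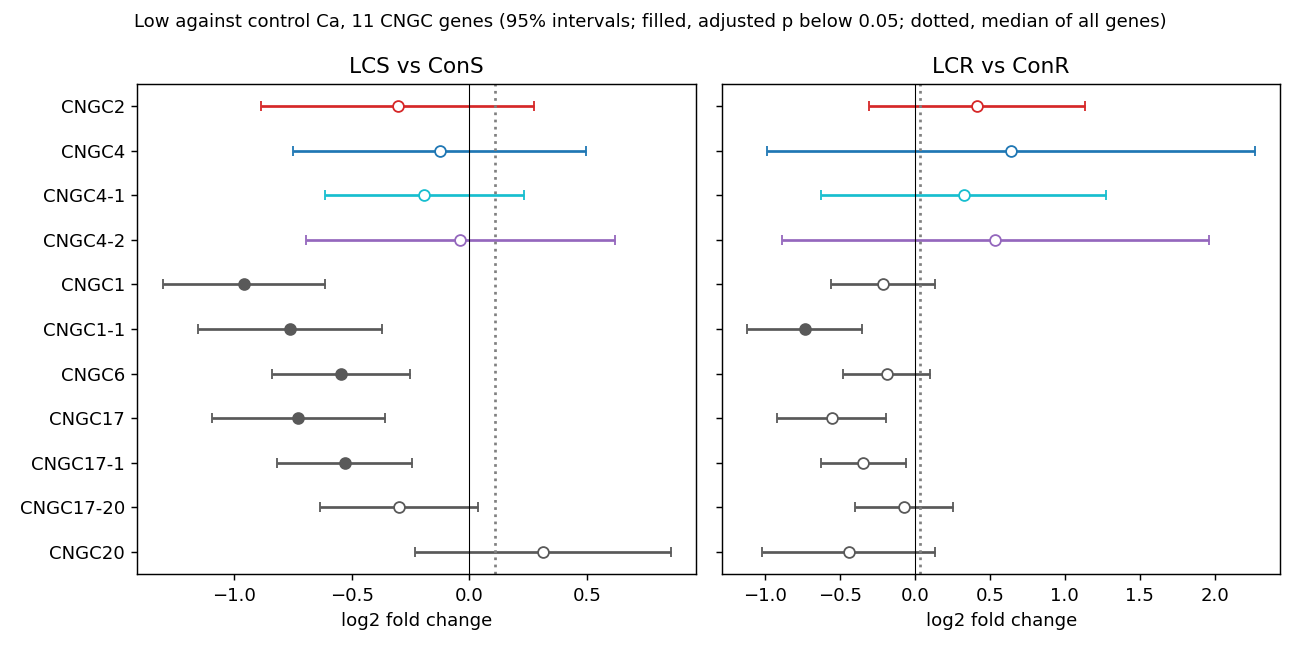
Log2 fold changes (horizontal axes) of low over control Ca2+ in shoots (LCS vs ConS, left) and roots (LCR vs ConR, right) for the 11 CNGC genes, with 95% intervals, filled where the edgeR adjusted p was below 0.05, and the median of all genes tested as a dotted line. The intervals of CNGC2 and the 3 CNGC4 genes include 0 on both sides, and those of 5 other CNGCs lie below 0 in shoots.

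The remaining calcium genes listed by the study did not share one direction between tissues. For comparison, 22.7% of all genes tested were called lower and 20% higher for LCR vs LCS, and 23.7% lower and 28.7% higher for ConR vs ConS. Of the 10 glutamate receptor-like channels, which also admit Ca2+, 3 were lower and 2 higher for LCR vs LCS, and 5 were lower and 2 higher for ConR vs ConS. The lowest of them in both was GLR3.1 at -6.62 and -8.09 (edgeR adjusted p = 1.4e-09 and 1.06e-10), and the highest for LCR vs LCS was GLR2.8, at 3.72 there and 2.32 for ConR vs ConS (edgeR adjusted p = 2.67e-06 and 0.000609). Of the 34 calcium transporters, 11 were lower and 5 higher for LCR vs LCS, and 16 were lower and 5 higher for ConR vs ConS. Of the 17 calcium-dependent kinases more were higher than lower, with 4 lower and 12 higher at low Ca2+ and 4 lower and 13 higher at control Ca2+, and the 18 calcium-binding genes were split, with 9 lower at each level and 7 higher at low and 8 higher at control Ca2+. The median log2 fold change for LCR vs LCS was -0.24 for the glutamate receptor-like channels, -0.15 for the transporters, 1.14 for the kinases and -0.17 for the calcium-binding genes, beside -5.48 for the 4 CNGC2 and CNGC4 genes and -0.03 for all genes tested. The study chose these lists on the same libraries, so their counts are not independent evidence of a direction.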

How the data were processed

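Read trimming with sickle, HISAT2 alignment to the tef reference genome held at CoGe and HTSeq counting of uniquely mapped reads over exons, with the reverse strand setting, were done by the authors. They deposited whole-number counts for 68255 genes in 16 libraries, without normalization. The versions of HISAT2 and HTSeq are not given in the sources used here. Replicate labels are unique to each library, so no libraries were paired.

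The count table was fitted once for all 4 groups with edgeR 4.0.16 (TMM, estimateDisp, glmQLFit, glmQLFTest) under R 4.3.3. A gene entered the fit when at least 4 libraries had a count above 0, which left 56746 genes, the 4 described among them, and was called at a Benjamini-Hochberg adjusted p below 0.05. SEs are the unshrunk coefficient over the root of the F statistic, with 95% intervals from the t distribution, and are approximate where counts are low. Counting intervals are exact. Levels are compared between libraries and not between genes, since gene lengths were not used. The scripts were tested on simulated counts. Alternatives were DESeq2 1.42.0, limma-voom (limma 3.58.1), other scalings and filters, thinned libraries, the 8 libraries of a comparison, and each library left out, plus LCS S6 and S8 left out together, which was chosen after seeing the data. Figures were drawn with Python 3.11.15. No gene positions or sequences are given, since no annotation was used.

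The genes and lists were chosen with earlier results of these data known. Each of the 4 genes is named. The other CNGCs were named where called, as were up to 2 called genes of any other list by size of change, and the 2 listed genes nearest in profile to each of the 4.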

Additional observations from a re-analysis of the deposited data

Results flagged for a closer look

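In each of the 16 combinations of gene and group, the highest and lowest library were compared with the rest. By Dixon's criterion, 2 stood far from the other 3. Chance alone would give about 5% of groups for normally distributed values, a rate that need not hold for counts of a few reads. CNGC4 in LCR S3 was 0 CPM, with no reads, and the next LCR library had 0.263 CPM. CNGC4-1 in LCR S1 was 0.566 CPM, from 4 reads, and the next LCR library had 0.234 CPM. Both rest on differences of a few reads.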

How the results depend on the processing

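All 4 genes were called lower in LCR vs LCS, ConR vs ConS and LCR vs ConS under each of the 26 alternatives, and none was called in LCS vs ConS, LCR vs ConR or the interaction under any that could be run. The interaction could not be fitted on the 8 libraries of a comparison. Over all alternatives, the log2 fold change for LCR vs LCS ran from -3.37 to -3.02 for CNGC2, from -6.19 to -5.47 for CNGC4, from -6.09 to -5.52 for CNGC4-1 and from -5.66 to -4.77 for CNGC4-2. For ConR vs ConS it ran from -4.30 to -3.70, from -7.13 to -6.33, from -6.35 to -5.88 and from -6.44 to -5.53 in the same order of genes. Upper-quartile normalization moved the median of all genes to 0.14 in LCR vs LCS, against -0.03 with TMM, and to 0.26 in ConR vs ConS, against 0.10 with TMM. The sign of a member changed only with a library left out. CNGC4-2 in LCS vs ConS ran from -0.15 to 0.047 and CNGC4-1 in LCR vs ConR from -0.066 to 0.49 over these omissions.

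Of the other CNGCs, CNGC17 in LCR vs LCS (-0.04) changed sign with upper-quartile normalization (0.14), with genes at 0 in 4 or more libraries removed (0.0056), with thinned libraries (0.035), without LCS S5 (0.0077) and without LCS S7 (0.077), and ran from -0.14 to 0.077 over the omissions of 1 library. In ConR vs ConS, CNGC17-1 (-0.04) changed sign with upper-quartile normalization (0.12) and without ConS S13 (0.020, the omissions running from -0.092), and CNGC6 (-0.15) with upper-quartile normalization (0.013). The count of genes called for LCR vs ConR was 1832 with edgeR, 4636 with DESeq2 and 2976 with limma-voom, and with a library left out it ran from 429 (without LCR S2) to 3533 (without ConR S11). With the 8 libraries of that comparison it was 4026. For LCS vs ConS it was 14619, against 9463 without LCS S8 and 4865 without LCS S6 and S8. For the interaction it was 3351, against 5199 with DESeq2, 5127 without LCS S7 and 1497 without LCS S6 and S8. Depth limits the root comparisons of the CNGC4 genes, which rest on 8 to 14 reads per group.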
